A study of Rattus norvegicus with 50 samples.

Results

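Of the 25 arrays of peripheral blood mononuclear cells (PBMC) in a series of 50 arrays, 4 held little platelet RNA and were set against the other 21. The choice rested on a platelet score, which is the mean over the genes *Pf4*, *Ppbp*, *Gp9* and *Treml1* of an array's log2 value minus that gene's mean over the 25 PBMC arrays. Arrays with a score below -1 were called platelet-poor and all others platelet-rich. The rule lists 5 genes, and the fifth, *Itga2b*, was not used because no transcript cluster carried that symbol in the annotation used here. Because measured values chose the arrays, the differences of PBMC genes between both sets are given as a description, with standard errors and no p-values.

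PBMC are obtained by letting blood settle through a density gradient, which keeps lymphocytes and monocytes and removes most red cells and granulocytes. Platelets are small cell fragments without a nucleus, shed by megakaryocytes of the bone marrow. They carry megakaryocyte RNA and follow the mononuclear cells into the same layer in amounts that vary between preparations. PF4 and PPBP are chemokines of the alpha granules, GP9 belongs to the receptor for von Willebrand factor, ITGA2B is the alpha chain of the fibrinogen receptor, and TREML1 is a receptor stored in alpha granules.

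The animals were male Wistar rats aged 3.5 months. PBMC and hippocampus arrays came from the same cohort, and the numbers of rats given here are arrays per tissue. MONW-Lep rats (n = 9) had been given leptin by mouth from day 1 to day 20 of life and later, over 11 weeks, a high-fat diet (60% of energy). MONW rats (n = 8) had been given vehicle in place of leptin and the same diet, and NW rats (n = 8) vehicle and a low-fat diet (10% of energy). All 3 groups were pair-fed isocalorically after weaning, and blood was taken in the fed state. Values are log2 values per transcript cluster after robust multi-array averaging (RMA), which removes background, gives all arrays the same distribution and combines the probes of a cluster. Each value is relative to the other RNA of the same array, and in such bulk samples fewer cells of a type cannot be told apart from less RNA per cell. Arrays of a group came from separate animals.

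The platelet-poor set held 2 of 9 MONW-Lep arrays, 1 of 8 MONW arrays and 1 of 8 NW arrays. Their scores were -2.51 in MONW-Lep replicate 5, -2.04 in NW replicate 6, -2.03 in MONW-Lep replicate 8 and -1.94 in MONW replicate 7. Among the platelet-rich arrays the scores had a lowest value of -0.49, in NW replicate 1, a median of 0.53 and a highest value of 1.07. No array lay in the gap of 1.45 between -1.94, just inside the threshold, and -0.49, just outside it. The mean score was -2.13 ± 0.26 in the platelet-poor arrays (SD, n = 4) and 0.41 ± 0.44 in the platelet-rich arrays (SD, n = 21).

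*Pf4* had log2 values of 8.76, 9.20, 9.63 and 9.86 in the platelet-poor arrays, in the order MONW-Lep replicate 5, NW replicate 6, MONW-Lep replicate 8 and MONW replicate 7, which is kept below. In the platelet-rich arrays its lowest, median and highest values were 11.56, 12.33 and 12.76. The means of the sets differed by -2.98, a 7.90-fold lower level in the platelet-poor arrays. *Ppbp* had 6.79, 6.93, 7.38 and 6.99 in the platelet-poor arrays, against 8.45, 9.74 and 10.87 as lowest, median and highest in the platelet-rich arrays, a difference of -2.77. *Gp9* differed by -2.44 and *Treml1* by -1.96. For none of the 4 genes did the sets overlap, and these are the genes the rule used.

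**Figure D1:**
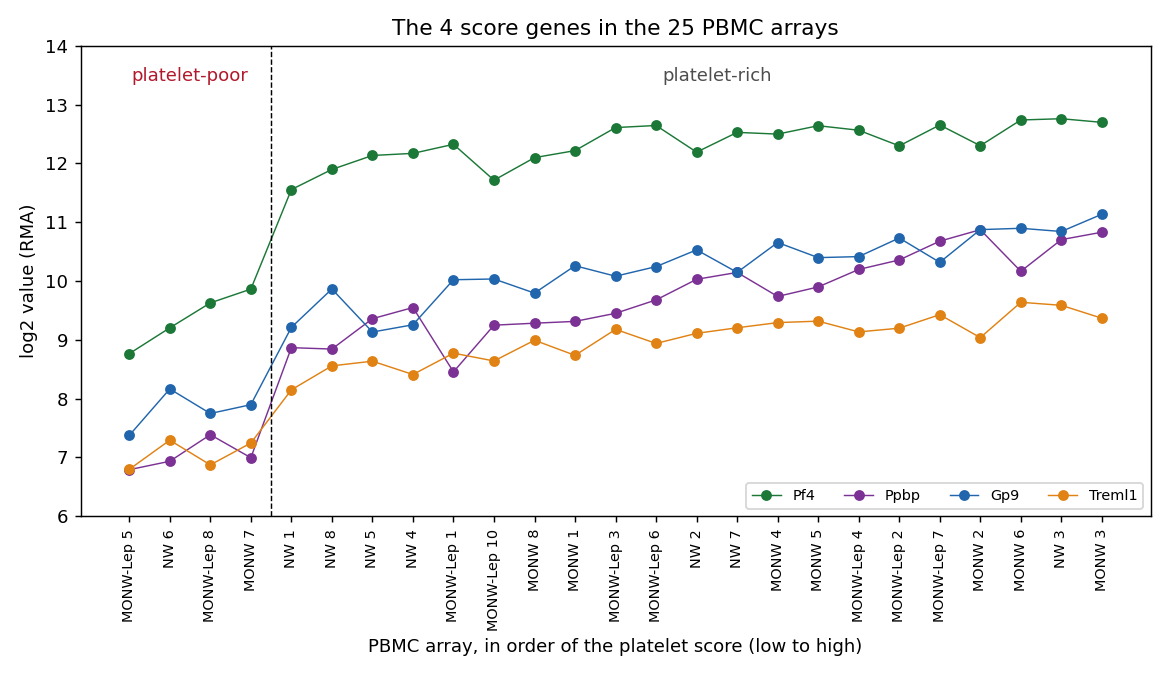
Log2 values of *Pf4*, *Ppbp*, *Gp9* and *Treml1* (y axis) in each PBMC array (x axis), with the arrays in order of the platelet score and the dashed line between the 4 platelet-poor arrays on the left and the 21 platelet-rich arrays on the right. *Pf4* lies between 8.76 and 9.86 left of the line and between 11.56 and 12.76 right of it.

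Other measures of the arrays overlapped between the sets. Genes brighter than 95% of the negative control probes made up 10.7 to 13.1% of genes in the platelet-poor and 9.15 to 21.1% in the platelet-rich arrays. The medians of these shares were 13.1% and 15.5%. Positive control probes exceeded negative ones by 2.10 to 2.22 log2 units in the platelet-poor and by 1.86 to 2.52 in the platelet-rich arrays. Here the medians were 2.18 and 2.27. For both measures every platelet-poor array lay below the platelet-rich median. The array medians of all genes were 6.89 to 6.91 in the platelet-poor and 6.87 to 6.94 in the platelet-rich arrays, and no 2 PBMC arrays held identical values (0 of 300 pairs). The value that 95% of the negative control probes stayed under was 9.04 to 9.31 in the platelet-poor and 8.59 to 9.51 in the platelet-rich arrays, and the median of these probes was at most 6.48 in the platelet-poor and 6.63 in the platelet-rich arrays. Of the 58 named genes with lower values, 42 were above that value on no platelet-poor array and 8 on all 4, so the platelet-poor side of most lower genes was not well above background. Of the 44 named genes with higher values, 16 were above the 95% value on no platelet-poor array and 19 on all 4. Some named genes were above it on no platelet-rich array either. Higher genes of this kind were *Alox15*, *Ier3*, *Ifng*, *Mcm4*, *Nr4a2*, *Nr4a3*, *Pdgfb*, *Rhd*, *Rsad2*, *Selp*, *Ube2c* and *Vegfa*. Lower genes of this kind were *Adgre1*, *Ciita*, *Clec10a*, *Cr2*, *Kdr*, *Slc18a2*, *Tbxas1* and *Vwf*. How far the RNA of such genes differed cannot be read from these values. All differences are between measured values. Where a fold is given as at least, platelet-poor values under the array's 95% value were first set to it. *Rplp0*, a ribosomal protein gene, ran from 11.75 to 11.93 in the platelet-poor and from 11.47 to 12.02 in the platelet-rich arrays. Extraction date, blood volume and cell counts were not used here, and their part in the split was not tested.

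Promoters of 4 genes that the results turn on are printed, 3 platelet genes with lower values (*Gp9*, *Clec1b* and *Gp5*) and *Alas2*, the red cell gene with the highest difference, because both kinds of cell use GATA factors. Megakaryocytes and red cell precursors share a common progenitor, and in mice and humans their genes are activated by the factor GATA1, in megakaryocytes together with factors of the ETS family. The 250 bases before each start site are those of RefSeq on build GRCr8, 5′ to 3′, all 4 on the plus strand. Capitals mark matches to a GATA motif (AGATAA or TGATAA) or to an ETS core (AGGAAG) on either strand. *Gp9* lies at chr4:121792592-121792841, *Clec1b* at chr4:164533859-164534108, *Gp5* at chr11:83948257-83948506 and *Alas2* at chrX:22895200-22895449.
Gp9: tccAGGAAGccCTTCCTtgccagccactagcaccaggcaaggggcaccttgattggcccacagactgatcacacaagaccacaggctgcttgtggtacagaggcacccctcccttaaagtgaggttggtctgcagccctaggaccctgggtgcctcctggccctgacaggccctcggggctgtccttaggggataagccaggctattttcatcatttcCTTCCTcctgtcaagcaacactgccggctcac
Clec1b: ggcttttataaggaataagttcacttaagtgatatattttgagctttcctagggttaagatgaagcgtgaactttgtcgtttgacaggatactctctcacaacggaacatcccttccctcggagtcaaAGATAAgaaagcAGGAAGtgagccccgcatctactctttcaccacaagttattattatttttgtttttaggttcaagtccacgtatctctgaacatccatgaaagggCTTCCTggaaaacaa
Gp5: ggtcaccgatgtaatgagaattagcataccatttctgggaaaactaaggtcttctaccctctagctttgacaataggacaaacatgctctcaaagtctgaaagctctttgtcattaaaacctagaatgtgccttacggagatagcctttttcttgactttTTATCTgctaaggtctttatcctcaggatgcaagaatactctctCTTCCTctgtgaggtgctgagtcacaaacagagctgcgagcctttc
Alas2: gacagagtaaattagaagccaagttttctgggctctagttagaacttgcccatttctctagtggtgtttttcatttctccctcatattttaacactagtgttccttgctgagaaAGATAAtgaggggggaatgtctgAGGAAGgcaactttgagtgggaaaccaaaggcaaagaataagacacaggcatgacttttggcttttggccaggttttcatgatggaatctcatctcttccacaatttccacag
The window of *Gp9* held 0 GATA and 3 ETS matches, that of *Clec1b* 1 and 2, that of *Gp5* 1 and 1, and that of *Alas2* 1 and 1. Of the 165 genes at least 2-fold lower in the platelet-poor arrays (below), 137 had a promoter in the RefSeq table, of which 21.9% held the GATA motif and 40.1% the ETS core. Of the 30 genes at least 2-fold higher, 25 had one, with 28.0% and 44.0%. Among the 12432 tested genes with a promoter the shares were 13.5% and 29.1%, and 16.6% and 29.4% among all 27457 promoters of that source. A match is a matter of letters in this window and shows no binding.

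Across 15045 transcript clusters with a gene symbol, score genes left out, 766 (5.09%) were lower and 284 (1.89%) higher in the platelet-poor arrays, 6.98% in either direction. A call means an adjusted p under 0.05 in limma with diet group as covariate, and since the same arrays defined the sets it serves here only to compare sizes with the spread between arrays. At least 2-fold differences were called for 165 lower (1.1%) and 30 higher (0.199%) clusters. All 4 platelet-poor arrays lay below all 21 platelet-rich arrays for 289 clusters (1.92%) and above them for 70 (0.465%). The difference had the same sign within MONW-Lep, MONW and NW for 762 of the 766 lower and 281 of the 284 higher clusters, against 39.8% of all clusters. The calls were made on these same arrays, so the choice favours a shared sign and the shares are no test. MONW and NW each held 1 platelet-poor array, so these arrays cannot decide whether the difference depends on diet group. Without MONW-Lep replicate 5 the calls numbered 679, with 525 lower and 154 higher.

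Platelet genes that the score had not used were among the largest differences. Of 17 measured receptors and adhesion molecules, 12 were lower and 1 higher, with a median difference of -1.44, against 0.03 over all clusters. *Clec1b*, the platelet receptor for podoplanin, had 6.76, 7.38, 8.58 and 8.63 in the platelet-poor arrays. In the platelet-rich arrays its lowest, median and highest values were 10.79, 11.62 and 12.03. The sets did not overlap, and the difference was -3.69 (SE 0.23), or at least 5.31-fold lower. *P2ry12*, the ADP receptor that clopidogrel blocks, had 5.75, 6.18, 6.02 and 5.91 in the platelet-poor arrays, against 8.40, 9.35 and 10.36 in the platelet-rich arrays, a difference of -3.42 (SE 0.29), or at least 1.20-fold lower. Every platelet-poor array lay below every platelet-rich array for this gene too.

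Thrombin receptors did not move together. *F2rl2*, encoding PAR3, had 7.18, 7.65, 7.78 and 7.92 in the platelet-poor arrays and 10.06, 11.21 and 12.03 as lowest, median and highest in the platelet-rich arrays, and was at least 3.93-fold lower. *F2rl3*, encoding PAR4, was lower by a difference of -0.62 (SE 0.15). *F2r*, encoding PAR1, was the 1 receptor gene with higher values, 9.10, 9.35, 9.11 and 9.34 in the platelet-poor arrays against 8.20, 8.62 and 9.19 in the platelet-rich arrays, a difference of 0.62 (SE 0.12). Mouse platelets rely on PAR3 and PAR4, and human platelets on PAR1 and PAR4. *Itgb3*, the beta chain of the fibrinogen receptor, differed by -2.34 (SE 0.23), *Gp5* by -2.46 (SE 0.26) and *Gp1ba* by -2.32 (SE 0.26). The proteins of *Gp5* and *Gp1ba* pair with GP9 in the receptor for von Willebrand factor, and for both genes the sets did not overlap.

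Of 23 measured genes of granule cargo and machinery, 10 were lower and 2 higher, with a median of -0.17. *F13a1*, the A subunit of clotting factor XIII, had 6.10, 6.72, 7.12 and 7.24 in the platelet-poor arrays, against 9.26, 10.44 and 11.12 in the platelet-rich arrays, and was at least 2.36-fold lower. *Thbs1*, encoding thrombospondin 1 of the alpha granules, differed by -3.16 (SE 0.24) and *Clu*, encoding clusterin, by -2.92 (SE 0.21). Genes for serotonin handling were lower as well, *Slc6a4*, the serotonin transporter, by -1.55 (SE 0.21) and *Slc18a2*, which loads amines into dense granules, by -1.04 (SE 0.24). *Selp*, encoding P-selectin, and *Pdgfb*, a platelet growth factor, were the 2 granule genes with higher values, with differences of 0.42 (SE 0.09) and 0.47 (SE 0.13), and for both genes the sets overlapped. P-selectin mRNA is made by endothelium as well as megakaryocytes. *Vwf*, made by the same 2 cell types, was lower by a difference of -0.86 (SE 0.17). On no array of either set did *Slc18a2*, *Selp*, *Pdgfb* or *Vwf* exceed the level, given above, that most negative control probes stayed under. Values this low cannot decide how far, or in which direction, the RNA of these genes differed.

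Of 47 measured genes of platelet signalling and cytoskeleton, 29 were lower and 0 higher, with a median of -0.55. *Myl9*, a myosin light chain, had 7.57, 8.44, 8.27 and 8.56 in the platelet-poor arrays, against 10.47, 11.56 and 12.14 in the platelet-rich arrays, and was at least 4.98-fold lower. *Nrgn*, a calmodulin-binding protein, differed by -2.28 (SE 0.18), *Pde5a*, which degrades cyclic GMP, by -3.16 (SE 0.26), and *Rgs18*, a regulator of G protein signalling in platelets, by -2.47 (SE 0.25). Enzymes of thromboxane synthesis were lower. *Ptgs1*, cyclooxygenase 1, had 6.47, 6.91, 7.19 and 6.78 in the platelet-poor arrays against 8.49, 9.78 and 10.47 in the platelet-rich arrays and was at least 1.43-fold lower. *Tbxas1*, thromboxane synthase, which monocytes also make, differed by -0.81 (SE 0.20) with overlapping sets. *Alox12*, the platelet lipoxygenase, differed by -3.15 (SE 0.25), and *Alox15* had higher values, by 1.03 (SE 0.22). *Tbxas1* and *Alox15* too exceeded the level that most negative control probes stayed under on no array of either set. The same limit holds for their differences. 

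Of 11 transcription factors of megakaryocytes, 4 were lower. These were *Nfe2*, with a difference of -1.78 (SE 0.20), *Gfi1b* with -1.88 (SE 0.22), *Tal1* with -1.61 (SE 0.24) and *Lmo2* with -0.63 (SE 0.10). *Gata1*, the factor named above, had 6.07, 5.83, 6.02 and 5.96 in the platelet-poor and 5.74, 6.36 and 6.98 in the platelet-rich arrays and was not called, with a difference of -0.35 (SE 0.17).

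Among the 12 lowest genes were several outside the platelet lists. *Slc40a1*, encoding the iron exporter ferroportin, had 5.74, 6.40, 6.97 and 6.75 in the platelet-poor arrays, against 9.07, 9.98 and 10.82 in the platelet-rich arrays, with a difference of -3.58 (SE 0.27) and no overlap. *Pla2g2a*, a secreted phospholipase A2, had 8.45, 9.28, 9.12 and 9.36 against 11.41, 12.31 and 12.60, and differed by -3.11 (SE 0.17). *Tmem117*, a membrane protein, differed by -3.10 (SE 0.30) and *Lgals2*, a galectin, by -3.09 (SE 0.51). Of the 165 clusters at least 2-fold lower, 38 carried genes of the platelet and megakaryocyte lists. Among those outside them were *Bgn*, encoding biglycan, with a difference of -3.00 (SE 0.24), and *Angpt1*, encoding angiopoietin 1, with -2.50 (SE 0.29), both chosen for mention after their values were seen.

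**Figure D2:**
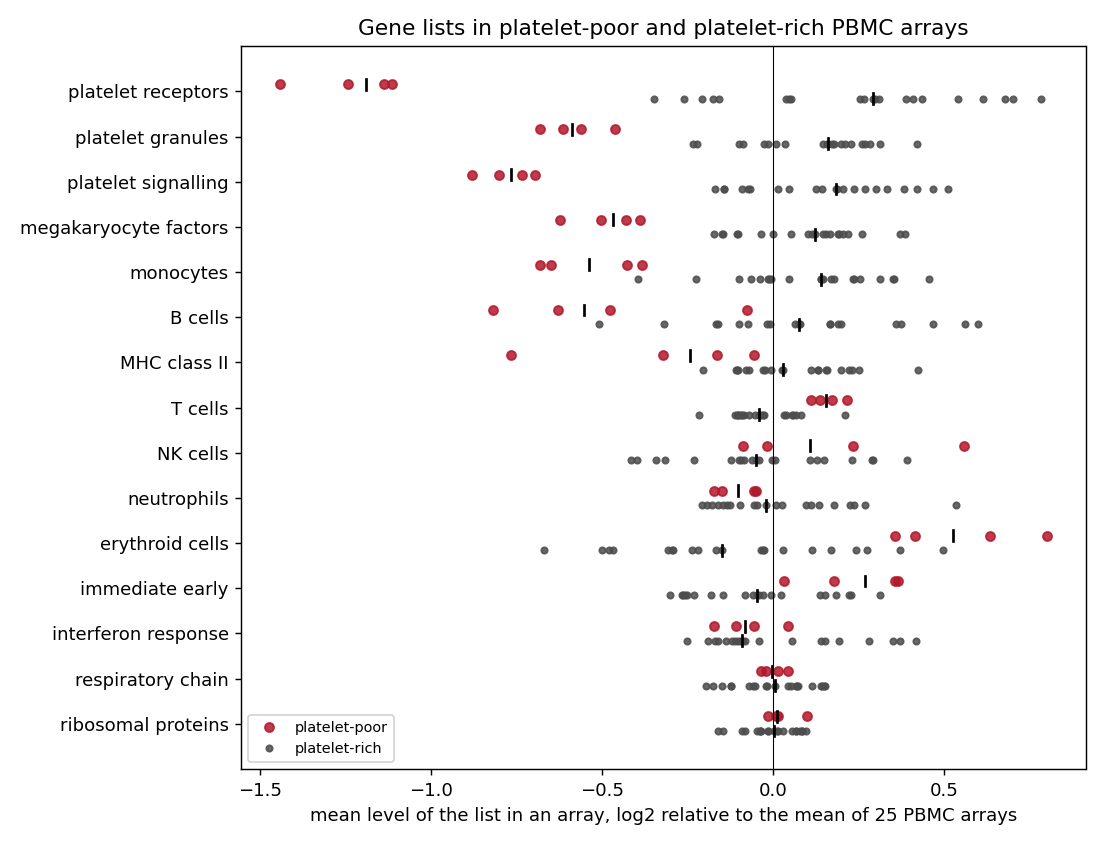
Mean level of each gene list in each array (x axis, log2 relative to the mean of the 25 PBMC arrays), with the 4 platelet-poor arrays above the 21 platelet-rich arrays in each row and a black tick at each median. The platelet receptor list runs from -1.44 to -1.11 in the platelet-poor arrays and from -0.35 to 0.78 in the platelet-rich arrays, and the ribosomal protein list from -0.02 to 0.10 and from -0.16 to 0.09.

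Monocyte genes were lower in the platelet-poor arrays too. Of 26 measured, 17 were lower and 0 higher, with a median of -0.65, and the mean of the list was -0.68 to -0.38 in the platelet-poor arrays, against a lowest, median and highest of -0.40, 0.14 and 0.46 in the platelet-rich arrays, so the list levels overlapped. *Csf1r*, the receptor for the monocyte growth factor CSF1, had 7.86, 8.46, 8.06 and 7.96 in the platelet-poor arrays. In the platelet-rich arrays it had 8.54, 9.40 and 9.74 as lowest, median and highest, so the sets lay apart, with a difference of -1.17 (SE 0.15). *Adgre1*, an adhesion receptor of monocytes and macrophages, differed by -1.30 (SE 0.16), *Clec4a3*, a lectin receptor, by -1.42 (SE 0.20), and *Sirpa*, an inhibitory receptor, by -0.96 (SE 0.13). *Lyz2*, encoding lysozyme, had a smaller difference, -0.33 (SE 0.08), and its sets overlapped. Without MONW replicate 7, 10 of the 26 genes were lower.

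Genes of B cells were lower in 10 of 17 and higher in 0, with a median of -0.60. *Btk*, a kinase of the B cell receptor that monocytes and platelets also hold, had 7.98, 8.01, 8.79 and 7.88 in the platelet-poor arrays and 8.87, 9.33 and 9.59 in the platelet-rich arrays, a difference of -1.12 (SE 0.13). *Cr2*, complement receptor 2, had 7.26, 7.19, 7.31 and 6.90 against 7.53, 8.57 and 8.86, a difference of -1.22 (SE 0.19). *Fcer2*, the low-affinity IgE receptor, differed by -0.97 (SE 0.17) and *Cd79b*, a chain of the B cell receptor, by -0.75 (SE 0.18). The platelet-poor arrays were not alike in these genes. The mean of the B cell list was -0.82 in MONW replicate 7, -0.63 in NW replicate 6, -0.48 in MONW-Lep replicate 5 and -0.08 in MONW-Lep replicate 8, against -0.51, 0.08 and 0.60 as lowest, median and highest of the platelet-rich arrays. Without MONW replicate 7, 4 of the 17 were lower. MHC class II genes, which B cells and monocytes use to present antigen, were lower in 6 of 12, and in 2 of 12 without that array. *Ciita*, the activator of these genes, differed by -0.76 (SE 0.13), and *Cd74*, the invariant chain, by -0.39 (SE 0.10). Class II genes of the rat are related in sequence, and signal of shared probes cannot be assigned to one of them.

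T cell genes had small differences. Of 25 measured, 4 were higher and 0 lower, with a median of 0.20. *Cd3e*, a chain of the T cell receptor complex, had 11.49, 11.40, 11.38 and 11.51 in the platelet-poor and 10.91, 11.18 and 11.38 in the platelet-rich arrays, a difference of 0.27 (SE 0.07) with overlapping sets. The other 3 called genes, *Cd2*, *Gata3* and *Icos*, were higher by 0.31 (SE 0.07), 0.40 (SE 0.09) and 0.35 (SE 0.10), and *Cd8a* was not called, with 0.09 (SE 0.09). With arrays centred on ribosomal protein genes, 0 of the 25 T cell genes were called. Of 18 NK cell genes 1 was lower and 0 were higher, with a median of 0.29. The 1 gene was *Ccl3*, a chemokine that monocytes and lymphocytes release, which differed by -0.77 (SE 0.12). Of 18 neutrophil genes 1 was lower, *Csf3r*, with -0.94 (SE 0.21). *S100a8*, which encodes an abundant calcium-binding protein of neutrophils, had 5.42, 5.47, 5.78 and 5.44 in the platelet-poor arrays, against 4.75, 5.85 and 7.07 in the platelet-rich arrays, and the sets overlapped.

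Many red cell genes had higher values. Of 19 measured, 13 were higher and 1 lower, with a median of 0.70. *Alas2*, the first enzyme of heme synthesis in red cell precursors, had 11.03, 10.77, 10.60 and 11.02 in the platelet-poor arrays. In the platelet-rich arrays it had 7.52, 8.60 and 10.03 as lowest, median and highest. The sets did not overlap, and the difference was 2.15 (SE 0.33), with 2.26 within MONW-Lep, 2.30 within MONW and 1.80 within NW. *Hemgn*, a nuclear protein of red cell precursors, had 9.52, 8.96, 8.90 and 9.46 against 6.60, 7.59 and 8.63 and differed by 1.60 (SE 0.24). *Bpgm*, which makes 2,3-bisphosphoglycerate, had 9.78, 9.22, 9.55 and 9.89 against 7.29, 7.99 and 8.94 and differed by 1.54 (SE 0.23).

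*Fech*, the last enzyme of heme synthesis, differed by 1.47 (SE 0.26) and *Slc4a1*, the anion exchanger band 3, by 1.59 (SE 0.42), and the sets overlapped for *Slc4a1*. Globin genes stood high in every array. *Hbb* had 12.84, 12.60, 12.75 and 12.73 in the platelet-poor and 11.60, 12.21 and 12.72 in the platelet-rich arrays, with a difference of 0.53 (SE 0.15). *Hba-a1* had 13.67, 13.64, 13.56 and 13.61 against 13.18, 13.48 and 13.62 and was not called. *Hba-a3*, another alpha globin gene, was higher by 1.02 (SE 0.21) with overlapping sets. *Hbb-b1* and *Hbb-bs* were higher by 1.08 (SE 0.23) and 1.47 (SE 0.39), and the near-identical globin copies can share signal. The mean of the red cell list was 0.35 to 0.80 in the platelet-poor arrays and -0.67 to 0.50 in the platelet-rich arrays. Without MONW replicate 7, 4 of the 19 genes were higher, and without MONW-Lep replicate 5, 6.

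*Rhag*, the Rh-associated glycoprotein of red cells, was the exception among them, with 5.19, 5.27, 5.61 and 5.38 in the platelet-poor arrays and 5.60, 7.38 and 8.99 in the platelet-rich arrays, a difference of -2.0 (SE 0.42). *Rhd*, encoding its partner in the Rh complex, had 8.04, 7.92, 7.49 and 8.61 against 6.10, 6.76 and 8.05, a difference of 1.17 (SE 0.27). The measured differences of these genes of one membrane complex thus had opposite signs. Both genes lay mostly under the level, given above, that most negative control probes stayed under. *Rhag* was above it on 0 platelet-poor and 2 platelet-rich arrays, and *Rhd* on 0 platelet-poor and 0 platelet-rich arrays. Values this low cannot decide whether the RNA of both genes moved apart. Iron genes also had differences of both signs. *Slc40a1* (above) and *Fth1*, the ferritin heavy chain, were lower, the second with 11.61, 11.55, 11.64 and 11.52 against 12.02, 12.41 and 12.77 and a difference of -0.86 (SE 0.11), while *Alas2* and *Fech* were higher.

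**Figure D3:**
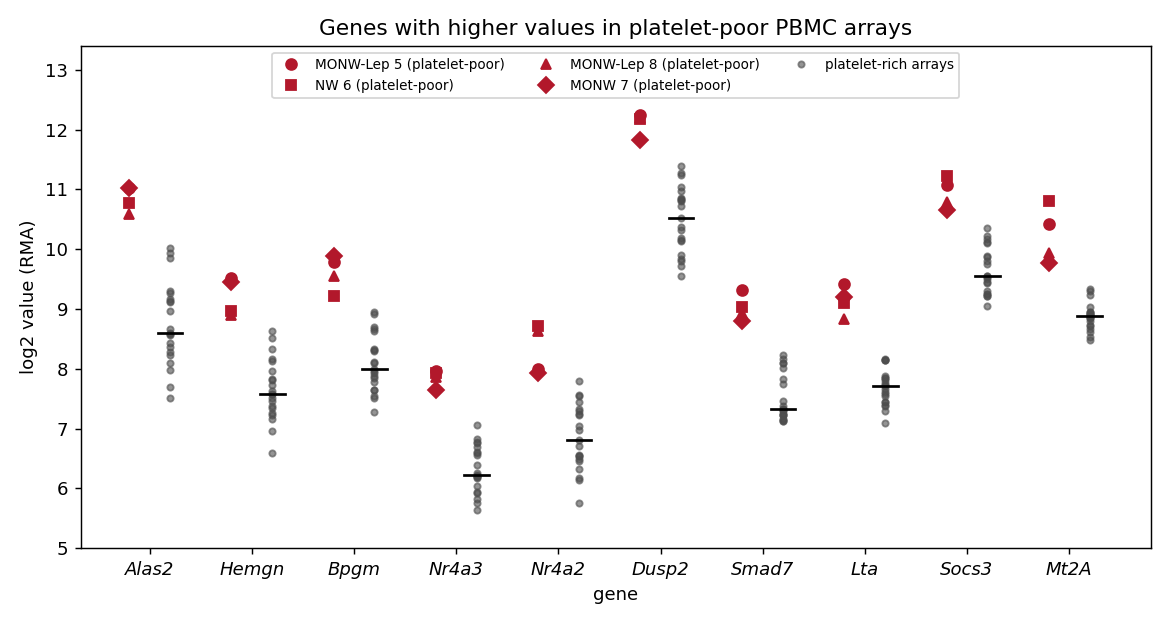
Log2 values (y axis) of 10 genes with higher values in the platelet-poor PBMC arrays (x axis), with a symbol for each of the 4 platelet-poor arrays on the left and grey points for the 21 platelet-rich arrays on the right, whose median is a black line. For all 10 genes the platelet-poor arrays lie above every platelet-rich array, as with *Nr4a3* at 7.65 to 7.96 against 5.64 to 7.06.

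A group of inducible genes was higher beside the red cell genes. Of 29 immediate early genes, 6 were higher and 0 lower, with a median of 0.21. *Nr4a3*, an orphan nuclear receptor induced within minutes to hours in activated lymphocytes, had 7.96, 7.93, 7.86 and 7.65 in the platelet-poor arrays. Its lowest, median and highest values in the platelet-rich arrays were 5.64, 6.22 and 7.06, and the difference was 1.58 (SE 0.16). *Nr4a2*, of the same family, had 8.00, 8.71, 8.63 and 7.94 against 5.75, 6.81 and 7.79, and *Dusp2*, a phosphatase of MAP kinases, 12.24, 12.18, 12.20 and 11.83 against 9.55, 10.51 and 11.39. Both genes kept the sets apart, with differences of 1.55 (SE 0.21) and 1.63 (SE 0.27). *Ier3* and *Fosl2* were higher by 1.10 (SE 0.15) and 0.56 (SE 0.15), *Fosl1* was the sixth, while the other 23 genes of the list, with *Fos*, *Nr4a1* and *Dusp1* among them, were not called.

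*Smad7*, the inhibitor of TGF-beta signalling, had 9.32, 9.04, 8.94 and 8.80 in the platelet-poor arrays and 7.12, 7.33 and 8.24 in the platelet-rich arrays, a difference of 1.52 (SE 0.19). *Lta*, the cytokine lymphotoxin alpha, had 9.41, 9.11, 8.84 and 9.20 against 7.10, 7.71 and 8.16, a difference of 1.48 (SE 0.15). *Mex3b*, an RNA-binding protein, had 9.07, 9.15, 9.04 and 8.98 against 6.70, 7.64 and 8.10. For these 3 genes every platelet-poor array lay above every platelet-rich array. *Rsad2*, an antiviral gene induced by interferon, was higher by 1.53 (SE 0.38) with overlapping sets, as 1 of 23 interferon response genes, while *Gbp2* was the 1 lower gene of that list, with -0.55 (SE 0.13).

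Further groups were put together after the values had been seen, and are given as counts with examples. Of 12 inhibitors and targets of JAK-STAT signalling, 6 were higher, with *Socs3* at 1.31 (SE 0.18), *Cish* at 1.04 (SE 0.21) and *Irf1* at 0.92 (SE 0.12), and 1 lower, the repressor *Bcl6*, at -0.93 (SE 0.17). Of 21 cytokines and chemokines, 7 were higher, with *Vegfa* at 1.04 (SE 0.19), *Ccl2* at 1.15 (SE 0.30) and *Ifng* at 0.64 (SE 0.17), and 1 lower, *Ccl3* (above), while 3 were higher without NW replicate 6. Of 16 glucocorticoid-induced genes 3 were higher, with *Mt2A*, a metallothionein, at 1.39 (SE 0.13) and *Sgk1*, a kinase, at 1.05 (SE 0.20). Of 15 clock genes 3 were higher, with *Ciart* at 1.26 (SE 0.23) and *Bhlhe40* at 0.78 (SE 0.13), of 10 genes of TGF-beta feedback 2 were higher, of 18 genes of heme and iron handling 6 were higher and 2 lower, and of 16 genes of eicosanoid synthesis 7 were lower and 1 higher. The time between bleeding and cell lysis was not used here, and its part in these values was not tested.

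The counts of the remaining lists stand beside 6.98% of all clusters called. Of 71 ribosomal protein genes and of 10 genes of liver-made clotting proteins 0 were called in limma (0 and 0 at an unadjusted p under 0.05), with medians of 0.04 and 0.09. Of 32 subunits of the respiratory chain 1 was lower, *Cox5a*, with -0.29 (SE 0.09). Of 24 proliferation genes 3 were higher, *Pcna* by 0.63 (SE 0.17), *Ube2c* by 0.35 (SE 0.08) and *Mcm4* by 0.28 (SE 0.08). Of 13 endothelial genes 2 were lower, *Vwf* (above) and *Kdr*, with -0.72 (SE 0.20), and of 11 dendritic cell genes 2 were lower, *Clec10a* and *Bcl11a*, with -0.69 (SE 0.16) and -0.55 (SE 0.14). Of 1190 chemosensory receptor genes, which have a median level of 4.37 and serve as a group near background, 11 were higher and 3 lower.

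The platelet-rich arrays alone show which of these genes followed the score where no array was poor in platelets. Within these 21 arrays a slope was fitted on the score with diet as covariate, signed so that a positive value means a higher level where the score is lower. The slope, added after the split had been seen, was called for 247 lower (1.64%) and 4 higher (0.0266%) clusters. The score came from these same arrays, so genes of platelets track it by its making, and the calls are a description and no test. With the replicate number as a block beside diet, the slope was called for 1 cluster. Of the 766 clusters lower in the platelet-poor arrays, 213 were also called lower along the slope and 78.7% had a slope of the same sign, and of the 284 higher clusters 0 were called higher and 60.9% had the same sign, against 56.6% of all clusters. The 4 genes with higher values were *Tst*, *Cd209a*, *Gpr158* and *Degs2*.

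Platelet genes followed the score within the platelet-rich arrays as well. The slope was -0.81 (SE 0.09) for *Clec1b*, -1.36 (SE 0.12) for *P2ry12*, -1.22 (SE 0.09) for *Ptgs1* and -0.95 (SE 0.08) for *Myl9*, in log2 units per unit of lower score. Of the 13 called receptor genes 12 were called in the same direction along the slope, and of the 29 called signalling genes 21. *Slc40a1* and *Pla2g2a*, from outside the platelet lists, had slopes of -1.13 (SE 0.14) and -0.71 (SE 0.08). *Rhag* had -1.73 (SE 0.27), while *Alas2*, *Hemgn* and *Bpgm* had -0.18 (SE 0.35), -0.04 (SE 0.25) and -0.03 (SE 0.24), and *Rhd* 0.09 (SE 0.29). *F2r*, *Selp* and *Pdgfb*, the platelet-list genes with higher values, had -0.03 (SE 0.13), -0.10 (SE 0.08) and -0.07 (SE 0.13).

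Monocyte and B cell genes were not called along the slope. Of the 17 called monocyte genes 15 had a slope of the same sign and 0 were called, with a slope of -0.11 (SE 0.16) for *Csf1r* and -0.11 (SE 0.17) for *Adgre1*. B cell genes ran the other way, with 16 of 17 slopes above 0 and a median of 0.40, as with *Cr2* at 0.36 (SE 0.19) and *Cd79b* at 0.46 (SE 0.15), although all 17 of their differences between the sets were below 0. Inducible genes had slopes near 0, -0.02 (SE 0.17) for *Nr4a3*, 0.07 (SE 0.20) for *Smad7* and 0.03 (SE 0.15) for *Lta*. The platelet-rich scores span 1.56 units and the sets lie 2.54 units apart in their means, which is the wider range.

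**Figure D4:**
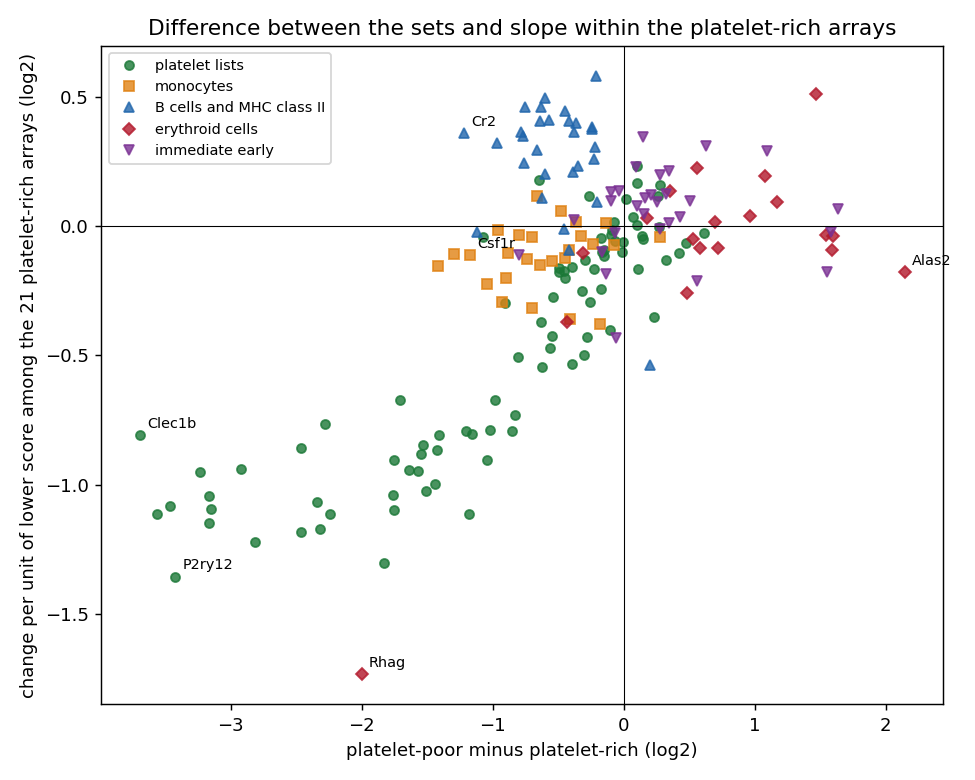
Difference between platelet-poor and platelet-rich PBMC arrays (x axis, log2) against the slope per unit of lower score within the 21 platelet-rich arrays (y axis, log2), 1 point per gene, with a symbol each for the platelet lists, monocytes, B cells with MHC class II, erythroid cells and immediate early genes. Platelet genes lie along a band from the lower left to the centre, B cell and MHC class II genes mostly at upper left, monocyte genes at left near a slope of 0 and red cell genes at right, with immediate early genes near a slope of 0, and *Rhag* at -2.0 and -1.73 apart from the other red cell genes.

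The hippocampus arrays of the 25 rats, matched to the blood arrays by diet group and the number in the labels, were not used to choose the sets and were compared in the same way. The labels do not state that a number marks the same animal in both tissues, so the comparison assumes that it does. It was made to ask whether the brains of the 4 rats with platelet-poor blood arrays stood apart. None of the 4 score genes passed the test there. *Pf4* had 6.01, 5.98, 6.19 and 5.82 in the hippocampus of these 4 rats, against 5.28, 5.93 and 7.16 as lowest, median and highest in the other 21, and the difference was 0.02 (SE 0.18, two-sided exact permutation p = 0.916 over 12650 regroupings). The differences of *Ppbp*, *Gp9* and *Treml1* were -0.09 (SE 0.13), 0.10 (SE 0.12) and 0.17 (SE 0.11), with exact permutation p-values of 0.501, 0.429 and 0.121. Of 17 platelet receptor genes 2 were higher and 1 lower at an unadjusted p under 0.05. 

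Over all 15049 clusters 0 passed an adjusted p of 0.05 in limma (smallest adjusted p = 0.123), and at an unadjusted p under 0.05, the threshold of the study's methods, 1120 were higher (7.44%) and 1371 lower (9.11%), where chance gives 752. Of these 2491, 781 passed in the same direction without MONW replicate 7, where 1121 passed in all (smallest adjusted p = 0.268). Most of the largest differences among these 2491 clusters rested on that animal. *Drd2*, a dopamine receptor abundant in striatum, had 5.89, 5.90 and 5.86 in the hippocampus of MONW-Lep replicate 5, NW replicate 6 and MONW-Lep replicate 8 and 8.64 in that of MONW replicate 7, against 5.40, 5.74 and 6.02 as lowest, median and highest in the other 21 rats. Its difference was 0.91 (SE 0.26, exact permutation p = 0.00237, limma adjusted p = 0.161) with all rats and 0.16 without MONW replicate 7. *Drd1*, another dopamine receptor, and *Slc6a3*, the dopamine transporter, differed by 0.88 and 0.78 with all rats and by 0.12 and -0.15 without it. *Dusp1*, an immediate early gene, and *Sema3a*, an axon guidance gene, differed by 0.85 and 0.77 with all rats and by 0.23 and 0.37 without it. *Chst9*, *Htr5b*, *Shisa6* and *Cabp7* differed by -1.17, -0.98, -0.91 and -0.90 with all rats and by -0.28 to -0.07 without it.

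*Frzb*, a secreted inhibitor of Wnt signalling, kept part of its difference. It had 7.19, 7.43, 7.62 and 5.53 in the 4 rats, against 7.51, 7.89 and 8.52 in the other 21, and differed by -1.01 (SE 0.21, exact permutation p = 0.000316) with all rats and by -0.49 without MONW replicate 7 (unadjusted p = 0.00424 in limma). The exact tests were run for 14 genes, of which 10 had been picked for large differences on the same arrays. Of the 284 clusters higher in the platelet-poor PBMC arrays, 154 (54.2%) had a difference above 0 in the hippocampus, and of the 766 lower ones 285 (37.2%) did, against 50.5% of all clusters. All clusters are not a like reference, since the lower ones had a median PBMC level of 8.18 against 6.91. Among hippocampus genes above the median level, 339 were higher and 1192 lower at an unadjusted p under 0.05 in limma. The part of level and of MONW replicate 7 in these shares was not tested.

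**Figure D5:**
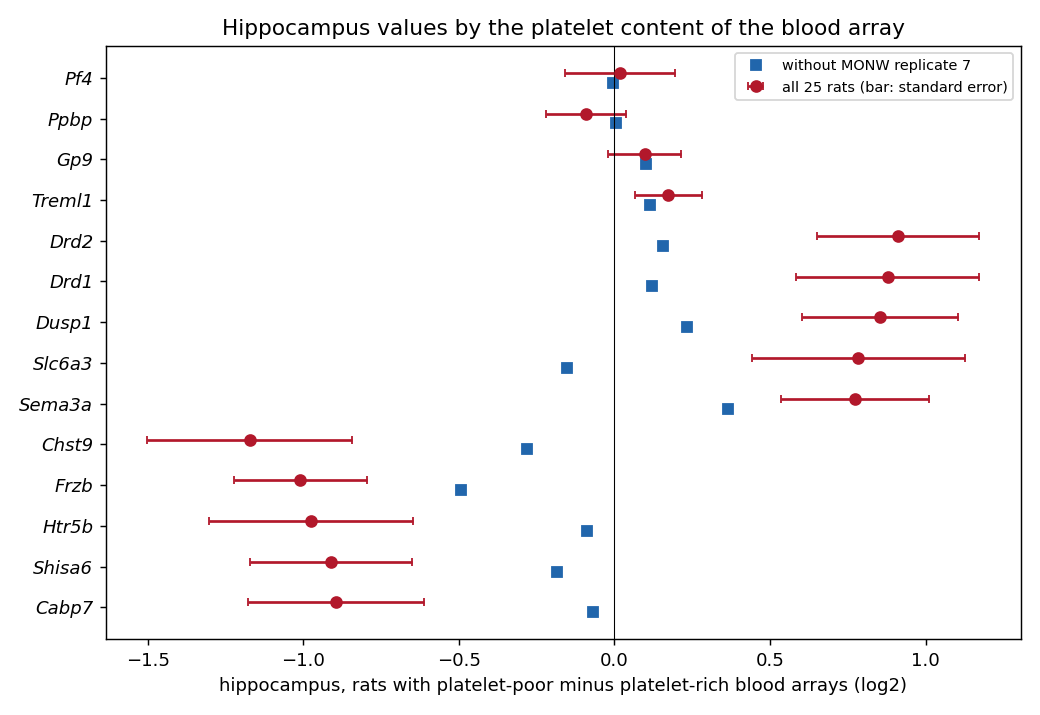
Difference in the hippocampus between the 4 rats with platelet-poor and the 21 rats with platelet-rich blood arrays (x axis, log2) for the 4 score genes and the 10 genes with the largest differences (y axis), in red for all 25 rats with standard errors and in blue without MONW replicate 7. The score genes lie between -0.09 and 0.17, and most of the large differences move toward 0 in blue, as with *Cabp7* at -0.90 and -0.07.

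The 4 platelet-poor arrays also bear on the diet comparisons of PBMC, since each group holds at least 1. For *Pf4* the MONW minus NW difference was 0.33 (SE 0.54) with all arrays and 0.28 (SE 0.16) without the 4. For *Clec1b* it was 0.49 (SE 0.68) and 0.38 (SE 0.18), and for *P2ry12* 0.38 (SE 0.65) and 0.47 (SE 0.29). *Gp9* differed by 0.60 (SE 0.48) with all arrays and by 0.72 (SE 0.24) without the 4. Since the 4 were chosen for low platelet values, the smaller standard errors of these genes follow from the choice and are no test. In MONW-Lep minus NW the difference of *Pf4* was -0.12 (SE 0.53) with all arrays and 0.22 (SE 0.16) without them.

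Of the inducible genes, *Nr4a3* differed by -0.32 (SE 0.30) between MONW-Lep and NW with all arrays and by -0.57 (SE 0.16) without the 4, and *Lta* by -0.13 (SE 0.28) and -0.32 (SE 0.14). Both genes stood apart in the 4 arrays, so their spread also shrinks by the choice. At an unadjusted p under 0.05 the MONW minus NW comparison called 452 clusters (3%) with all arrays and 868 without the 4, and 343 of the 452 were called the same way in both. MONW-Lep minus NW called 715 (4.75%) and 943, with 510 shared, and MONW-Lep minus MONW 369 (2.45%) and 366, with 198 shared, where chance gives 752 in each. With the score as a covariate over all arrays the counts were 617, 818 and 387. None of these comparisons called a cluster at an adjusted p under 0.05 in limma, and the smallest adjusted p among them was 0.132, for MONW-Lep minus NW without the 4 arrays. Leaving out NW replicate 6 alone gave 742 and 1131 clusters in MONW minus NW and MONW-Lep minus NW.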

How the data were processed

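RNA of PBMC and hippocampus from rats of the same cohort was hybridized to Affymetrix Rat Clariom S arrays, 25 per tissue. The deposited values are log2 values per transcript cluster that the authors made with RMA. The submitters' processing notes also name R 4.0.4 and limma, and do not state the annotation version. The authors' values were used without further normalization.

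Of 24871 clusters, 1683 are controls, 15049 carry 1 gene symbol in the platform annotation used here and the other 8139 were not named. Where a symbol had several clusters, gene lists used the one with the highest mean. The platelet-poor and platelet-rich sets were compared over 15045 clusters with limma 3.58.1 in R 4.3.3 (lmFit, eBayes, diet as covariate, Benjamini-Hochberg adjusted p under 0.05), and hippocampus arrays likewise, matched by group and number of the labels, with two-sided exact permutation tests of diet-adjusted values for single genes. In these tests exact means that all 12650 regroupings were counted. The regroupings did not keep diet groups apart, so the p-values are approximate. Fold changes are 2 raised to the size of the log2 difference. The detection level was the 95th percentile of 1153 negative control probes on each array. Scripts were tested on simulated data. Promoters are from RefSeq, and plots were made in Python 3.11.15 (matplotlib 3.10.9). Precision is limited by the number of arrays, 4 in the platelet-poor set.

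The arrays, gene lists and tests were chosen with earlier results of these data known. Named genes are the 12 largest and 12 smallest called differences, for every list its 4 top-ranked members by p, and the score genes. In the hippocampus they are the 5 largest and 5 smallest differences among genes at an unadjusted p under 0.05 in limma. Others were chosen after their values were seen, as were the clock, glucocorticoid, JAK-STAT, cytokine, TGF-beta, heme and eicosanoid lists. The slope within platelet-rich arrays and leaving out single platelet-poor arrays in the diet comparisons were added after seeing the data. Alternatives covered the covariate, threshold, score genes, scaling, filters, weights and left-out arrays.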

Additional observations from a re-analysis of the deposited data

Results flagged for a closer look

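Values of single arrays that lay far from the rest of a group of 4 to 9 arrays, by Dixon's gap test, were found in 17 of 179 groups tested. Chance flags about 1 in 20 independent, unselected groups. Many of these groups were genes picked for large differences on the same arrays, so the total cannot be set against that rate. Among the platelet-poor PBMC arrays, MONW replicate 7 had the lowest log2 value of *Dusp2* (11.83, against 12.18 to 12.24 in the other 3), the lowest of *Cd74* (11.59, against 11.98 to 12.03) and the highest of *Icos* (9.85, against 9.59 to 9.63). MONW-Lep replicate 8 had the highest values of *Btk*, of the B cell list (8.79, against 7.88 to 8.01), and of *Bcl11a*, of the dendritic cell list (8.84, against 8.03 to 8.08), the highest of *S100a8* (5.78, against 5.42 to 5.47) and the lowest of *F10* (6.03, against 6.19 to 6.22). MONW-Lep replicate 5 had the lowest values of *Lcn2* (5.05, against 5.55 to 5.61) and *Or10q1* (5.78, against 6.11 to 6.16), and NW replicate 6 the lowest of *Cd2* (10.62, against 10.77 to 10.79). Within the MONW group the platelet score of MONW replicate 7 (-1.94) lay apart from the other 7 arrays (0.10 to 1.07).

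In the hippocampus, MONW replicate 7 lay apart from the other 3 rats with platelet-poor blood arrays in 6 genes. It had 8.64 for *Drd2* (others 5.86 to 5.90) and 8.69 for *Drd1* (others 5.61 to 5.67). It had 4.67 for *Chst9* (others 7.92 to 8.06), 4.95 for *Htr5b* (others 8.06 to 8.37), 6.61 for *Shisa6* (others 9.18 to 9.43) and 7.51 for *Cabp7* (others 10.37 to 10.81).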

How the results depend on the processing

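The 4 platelet-poor arrays were the same at a score threshold of -0.5 or -1.5 and with any 1 score gene left out. In the PBMC split the count of 1050 called clusters ran from 679 to 961 with 1 platelet-poor array left out, the lowest without MONW-Lep replicate 5, and the count of at least 2-fold differences, 195 with all arrays, from 171 to 212. Other settings gave 833 to 1412 calls, and the higher and lower calls numbered 378 and 756 after another quantile normalization, 163 and 682 with arrays centred on ribosomal protein genes, 381 and 884 with array weights and 369 and 1043 over all clusters that are not controls. Of 102 called genes named, 10 lost the call with ribosomal centring, 21 with the replicate block, 13 with the score as a number and 9 to 23 with 1 platelet-poor array left out, and none of these changed sign.

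Deviations of same-numbered PBMC arrays of different diet groups had correlations of -0.43 to 0.45 (median 0.07, 24 pairs). Pairs with other numbers had -0.38 to 0.60 (median -0.013, 184 pairs). These ranges overlap widely and cannot decide whether a number links animals of different groups. With the replicate block the split called 833 clusters (191 at least 2-fold), the hippocampus comparison 1118 at an unadjusted p under 0.05, the slope within platelet-rich arrays 1 (*Fhl1*), and the diet comparisons 523, 744 and 405. The sign of *Rps3* turned under the block to -0.00465, and that of *Gp9* in the hippocampus to -0.0255. Of the red cell genes, 6 of 19 were higher under the block.

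The hippocampus count of 2491 was 1531 over genes above the median level and 1121 to 2723 with 1 rat left out. At an adjusted p under 0.05 it was 0 with all rats, 1 over all clusters that are not controls and 0 to 2 with 1 rat left out, the 2 being *Ucp2* and *Olr59* without MONW-Lep replicate 8. With 1 rat left out, hippocampus differences crossed 0 for *Pf4* (-0.0169 without NW replicate 6 to 0.0720), *Ppbp* (-0.175 to 0.00344 without MONW replicate 7), *Gp9* (-0.0211 without NW replicate 6 to 0.196) and *Slc6a3* (-0.15 without MONW replicate 7 to 1.30). Over genes above the median level MONW minus NW called 157 clusters, MONW-Lep minus NW 339 and MONW-Lep minus MONW 119. Leaving out the platelet-poor arrays gave 868 for MONW minus NW, and leaving out 1 of them gave 449 to 742, 630 to 1131 and 343 to 487. Where a count moved, the cause was not tested.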
